A study of Mus musculus with 6 samples.

Results

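Proliferating microglia were examined as 451 nuclei (1.42%) among 31738 nuclei that passed the filters, out of 33335 deposited nuclei. A nucleus was a member when it had 200 or more detected genes, 5% or fewer mitochondrial UMIs (unique molecular identifiers, each counting 1 captured RNA molecule) and 3 or more raw UMIs summed over 11 cell cycle genes. Those genes were Atad2, Rad51ap1, Dtl, Esco2, Neil3, Top2a, Mki67, Knl1, Kif15, Cenpe and Cenpf. The 31287 passing nuclei with fewer such UMIs are called the other nuclei. Levels of the 11 genes chose the members, so their values are a description only and were not tested.

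The nuclei came from mouse hippocampus at 9.5 months and were sorted for PU.1, a transcription factor of myeloid cells, before single-nucleus RNA sequencing. There were 6 libraries, 1 per genotype, each made from a pool of 3 mice. The genotypes were the P301S/E4, P301S/EKO and E4 backgrounds, each as TREM2- and as TREM2+. Lists of 6 values follow these backgrounds in that order, with TREM2- before TREM2+ in each. P301S stands for a human tau transgene with that mutation, E4 for human APOE4, EKO for the lack of Apoe, and TREM2- and TREM2+ for the lack and presence of the microglial receptor gene Trem2. None of the groups is labelled as having unmodified Apoe, and the E4 libraries carry APOE4 just as the P301S/E4 libraries do. The promoters that drive the transgenes were not given in the sources used here. With 1 pooled library per genotype, mice of a genotype cannot be told apart and a difference between 2 libraries has no replicate check.

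A cell that divides first copies its DNA in S phase and then separates the copies in mitosis. Genes for DNA synthesis and repair are transcribed ahead of and during S phase, largely under E2F transcription factors. Genes for spindles, kinetochores and chromosome condensation are transcribed later, in G2 and mitosis, through promoters with CHR elements and CCAAT boxes. Microglia renew themselves by local division in the adult brain, and they divide more in tissue with neurodegeneration. PU.1 is also present in the macrophages of the brain's borders and in monocytes, so the sort does not select microglia alone.

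Library totals lay between 3351882 and 8717000 UMIs, and the members held 1242185 UMIs. Members were deeper than the other nuclei, with a median of 1299 against 722 UMIs and 876 against 494 detected genes. By library the members' median was 1592, 1112.5, 704, 1086, 940 and 706 UMIs, against 904, 773.5, 569, 803, 709 and 572 UMIs in the other nuclei. A deeper nucleus reaches 3 UMIs more easily, and 32.4% of members against 6.48% of the other nuclei held more than 2 times the median UMI count of their library. No doublet caller was run here. A sort gate does not remove 2 nuclei caught in 1 droplet, and the part of doublets in the results was not tested. Without the nuclei above 2 times the median the shares of members were 2.55%, 0.687%, 0.494%, 0.921%, 0.790% and 0.295% by library. Mitochondrial UMIs made up 0.652% of the members' UMIs and 0.807% in the other nuclei. Among passing nuclei 101 barcodes occurred in more than 1 library, and 2 members carried such a barcode.

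The labelled cell type was checked against 21 microglia markers. Every one of the 451 members held 3 or more UMIs of these markers, as did 99.6% of the other nuclei and all 112 members with 3 or more UMIs of border macrophage markers, so this count does not tell microglia from macrophages. The markers summed to 20288, 20800, 21500, 22619, 23807 and 23004 CPM (UMIs per 1e6 UMIs of the nuclei summed) in members, against 23114, 23523, 26500, 26932, 34214 and 32340 CPM in the other nuclei, and were lower in members of each library. P2ry12, a purinergic receptor gene, had 436, 322, 397, 590.1, 859 and 827 CPM in members against 527, 355, 790.3, 657, 1345 and 1237 CPM in the other nuclei. One member of E4/TREM2- with 6126 UMIs held just 3 microglia marker UMIs and 225 UMIs of Meg3, an RNA gene of neurons. Trem2 transcripts were still present in members of the TREM2- libraries. Trem2 had 576, 685 and 306 CPM in members of P301S/E4/TREM2-, P301S/EKO/TREM2- and E4/TREM2-, against 1028, 852 and 662 CPM in members of the matching TREM2+ libraries. It was lower in the TREM2- library of each pair, with a log2 fold change of -0.76 (SE 0.27) and an edgeR adjusted p of 0.9993, so it was not called. The deleted part of Trem2 is not given in the sources used here, so these UMIs check the labels only in direction. Apoe had 1 UMI in members of P301S/EKO/TREM2- and 3 UMIs in members of P301S/EKO/TREM2+.

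Most members held several of the rule's genes. Among the 451 members 360 had UMIs of 2 or more of the 11 genes and 91 had UMIs of just 1. The members just inside the threshold were 166 nuclei with exactly 3 such UMIs, of which 65.7% held 3 or more UMIs of cell cycle genes outside the rule. The nuclei just outside it were 470 with 2 such UMIs, of which 47.4% did. At the other end, 63 members had more than 10 such UMIs, 47 of them from P301S/E4/TREM2-.

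The S-phase genes of the rule serve DNA replication and its repair. Atad2, a chromatin-bound ATPase, was the most abundant with 486, 66, 34, 64, 55 and 21 UMIs in members by library, and 70.1% of members against 4.68% of the other nuclei held a UMI of it. It was also the least confined to members of the S-phase genes, since 31.5% of its UMIs lay in members. Rad51ap1, which assists homologous recombination, had 183 UMIs in 30.2% of members. Dtl, the substrate receptor that marks the licensing factor Cdt1 for destruction in S phase, had 148 UMIs in 26.8% of members. Esco2, the acetyltransferase that establishes cohesion between sister chromatids, had 131 UMIs in members, which were 92.9% of all its UMIs, the highest such share of the 11 genes. Neil3, a DNA glycosylase, had 98 UMIs in 15.5% of members and 0.0671% of the other nuclei.

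The mitotic genes of the rule act on chromosomes and the spindle. Top2a, the topoisomerase that untangles sister chromatids, had 356, 29, 21, 21, 38 and 16 UMIs in members by library, which were 88.3% of its UMIs. Its level in members was 453, 161, 758, 125, 553 and 1324 CPM, against 4.87, 1.97, 1.27, 0.56, 1.52 and 1.13 CPM in the other nuclei. Members of every library lay far above the other nuclei, as the rule requires. Mki67, which encodes the Ki-67 protein that coats mitotic chromosomes, had 217 UMIs in 25.9% of members, and Knl1, a kinetochore scaffold, had 174 UMIs in 24.8%. The spindle motor gene Kif15 had 122 UMIs in members, 44.9% of its total, and the kinetochore motor gene Cenpe had 86 UMIs. Cenpe was absent from the 15 members of E4/TREM2+. Cenpf, a kinetochore and nuclear envelope protein, had 146, 89, 42, 72, 83 and 13 UMIs in members, and only 26.3% of its UMIs lay in members.

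In GRCm38 coordinates Atad2 lies on chromosome 15 (58094044 to 58135082, minus strand), Top2a on chromosome 11 (98992943 to 99024189, minus strand), Cenpf on chromosome 1 (189640606 to 189688086, minus strand) and Mki67 on chromosome 7 (135689784 to 135716361, minus strand). As examples of S-phase and mitotic promoters, the 250 bases before the start of 4 of the rule's genes are printed 5′ to 3′ from RefSeq (GRCm38.p6). The 4 genes are the 2 S-phase and the 2 mitotic genes with the most UMIs among those matched, and capitals mark the motifs searched. The motifs were the E2F cores TTCCCGC and TTGGCGC, the CHR letters TTTGAA and TTCGAA, and CCAAT, each on both strands with overlaps counted, and TTCGAA, which reads the same on both strands, counted once a place.
Rad51ap1, chr6:126939588-126939837, minus strand: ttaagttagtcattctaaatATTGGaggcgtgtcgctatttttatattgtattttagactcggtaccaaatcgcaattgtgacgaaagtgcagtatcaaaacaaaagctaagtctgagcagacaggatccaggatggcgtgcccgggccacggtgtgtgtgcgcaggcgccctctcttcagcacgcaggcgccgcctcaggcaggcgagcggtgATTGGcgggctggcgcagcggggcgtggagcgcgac
Dtl, chr1:191575545-191575794, minus strand: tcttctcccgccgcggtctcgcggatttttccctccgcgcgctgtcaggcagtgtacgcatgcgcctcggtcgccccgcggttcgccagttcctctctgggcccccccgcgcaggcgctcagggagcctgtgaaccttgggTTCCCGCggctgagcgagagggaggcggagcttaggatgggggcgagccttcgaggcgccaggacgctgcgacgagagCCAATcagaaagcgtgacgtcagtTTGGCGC
Top2a, chr11:99024190-99024439, minus strand: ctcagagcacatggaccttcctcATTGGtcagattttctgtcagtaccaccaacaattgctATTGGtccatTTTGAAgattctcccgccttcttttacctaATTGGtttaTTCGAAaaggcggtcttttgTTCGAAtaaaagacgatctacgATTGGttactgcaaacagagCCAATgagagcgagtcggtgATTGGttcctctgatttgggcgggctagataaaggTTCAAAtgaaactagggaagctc
Cenpf, chr1:189688087-189688336, minus strand: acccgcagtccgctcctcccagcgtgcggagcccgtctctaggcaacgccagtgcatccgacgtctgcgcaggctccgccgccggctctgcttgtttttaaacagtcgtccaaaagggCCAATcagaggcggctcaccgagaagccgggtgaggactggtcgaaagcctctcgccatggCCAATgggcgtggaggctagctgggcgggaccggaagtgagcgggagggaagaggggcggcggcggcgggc
The Dtl stretch held both E2F cores and 1 CCAAT, and the Top2a stretch held 4 CHR matches and 6 CCAAT. The Rad51ap1 and Cenpf stretches held 2 CCAAT each, with neither E2F core nor CHR letters in this window. Of the 11 genes 9 were matched, all but Atad2 and Esco2. An E2F core was in 3 of the 9 (Dtl, Mki67 and Kif15) and in 5.62% of all 32851 promoters of the same length. CHR letters were in 4 of the 9 (Neil3, Top2a, Mki67 and Kif15) and in 17.1% of all promoters, and CCAAT was in 6 of the 9 and in 33.8% of all. The motifs did not split these genes by phase. E2F cores were also in the mitotic genes Mki67 and Kif15, and CHR letters were also in the S-phase gene Neil3. A match is a description of letters and not a binding site shown to be used.

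Cenpf differed from the other 10 genes in where its UMIs lay. Of 551 passing nuclei with 10 or more UMIs of 11 border macrophage markers, 35.8% held a Cenpf UMI, against 2.65% of nuclei with no such marker UMI. For Atad2 the same shares were 10.2% and 4.95%, and for Top2a 2.36% and 0.654%. The median depth was 951 UMIs in the 551 nuclei and 692 in nuclei with no such UMI, and no other gene of the rule passed 10.2%. In the authors' deposited table of group markers, Cenpf is listed under the group named Mac, with a log fold change of 3.62, while 8 of the rule's genes are listed under the group named Prol.

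**Figure D1:**
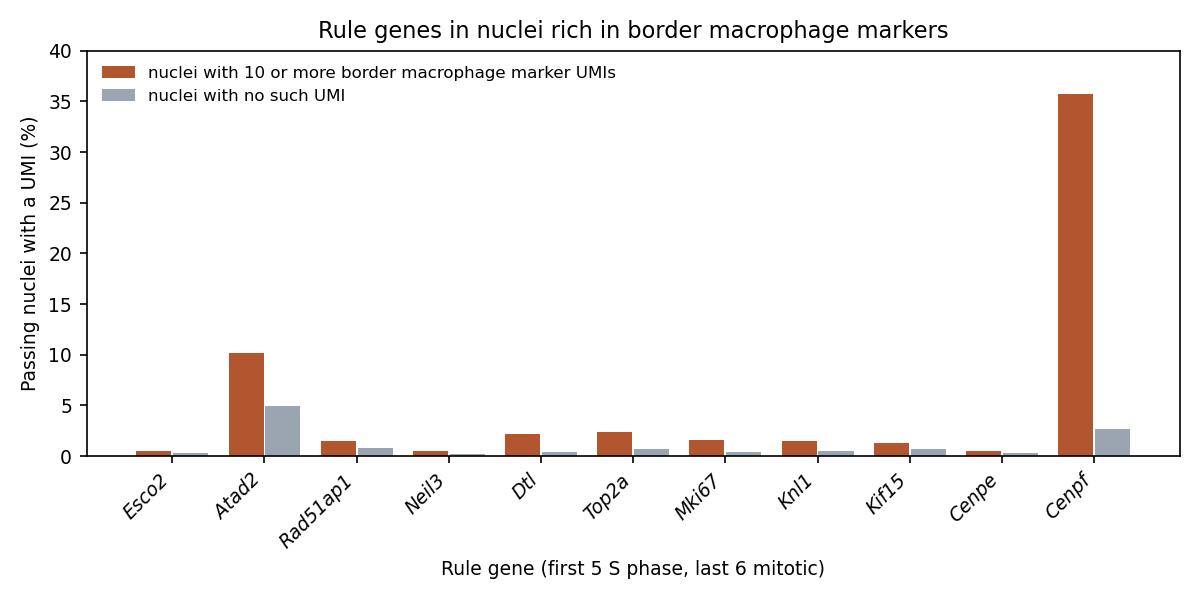
Percent of nuclei holding at least 1 UMI of each of the 11 rule genes (y axis), in nuclei with 10 or more border macrophage marker UMIs and in nuclei with none. Cenpf is at 35.8% of the 551 border macrophage marker nuclei, against 2.65% of nuclei without such UMIs, and no other rule gene passes 10.2%.

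Cenpf gave at least 50% of the rule UMIs in 103 members, which was 8.49%, 51.9%, 38.7%, 40.0%, 40.4% and 26.7% of the members by library. Of these 103 nuclei 47.6% held 3 or more border macrophage UMIs, against 18.1% of the remaining 348 members. The border macrophage markers summed to 2202 CPM in the Cenpf-led members and 806 CPM in the remaining members, with 805 CPM in the other nuclei. The Cenpf-led members had the higher level in 6 of 6 libraries. Cell cycle genes outside the rule reached 3 UMIs in 77.3%, 46.4%, 25%, 38.9%, 26.3% and 50% of Cenpf-led members by library, against 95.4%, 88.5%, 73.7%, 96.3%, 78.6% and 90.9% of the remaining members. In other nuclei matched for depth to all members (the 5 nearest by UMI count of the same library for each member) it was 60.2%, 40.4%, 16.8%, 46.7%, 28.1% and 14.7%. The Cenpf-led members, which numbered 4 to 28 a library, lay above it in 4 of 6 libraries. Over all libraries it was 45.6% of Cenpf-led members (median 955 UMIs) and 48.6% of matched nuclei (median 1298 UMIs). S-phase and mitotic genes outside the rule summed to 1439 and 533 CPM in Cenpf-led members and 1375 and 492 CPM in matched nuclei. In the remaining members they summed to 5360 and 3491 CPM. As a whole the Cenpf-led members thus lay close to matched nuclei in these genes. Results that rest on these nuclei are therefore given with and without Cenpf in the rule.

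Members were most frequent in P301S/E4/TREM2-. They numbered 259 of 7004 nuclei there and 54 of 6186 in P301S/E4/TREM2+, 31 of 5050 in P301S/EKO/TREM2-, 45 of 3582 in P301S/EKO/TREM2+, 47 of 4828 in E4/TREM2- and 15 of 5088 in E4/TREM2+. The shares were 3.70% (95% exact Clopper-Pearson interval 3.27 to 4.17), 0.873% (0.656 to 1.14), 0.614% (0.417 to 0.870), 1.26% (0.918 to 1.68), 0.973% (0.716 to 1.29) and 0.295% (0.165 to 0.486). The interval of P301S/E4/TREM2- lay above those of all other libraries, and that of E4/TREM2+ overlapped only that of P301S/EKO/TREM2-. These intervals cover counting error only, not the spread between mice. Of 150 nuclei with 10 or more UMIs of neuron markers, which should not divide, 1 met the rule (0.667%, interval 0.0169 to 3.66) at a median of 3256.5 UMIs, against 1299 UMIs in members. That interval rests on 1 nucleus and covers the shares of the 5 libraries other than P301S/E4/TREM2-, so it sets no background level for them.

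**Figure D2:**
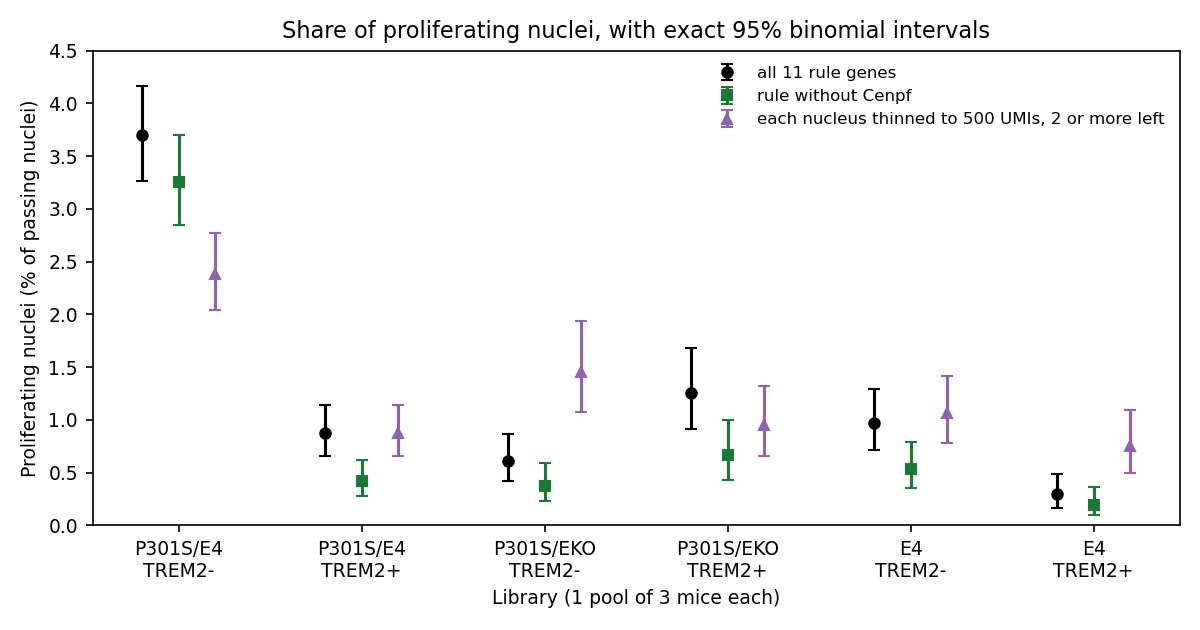
Percent of passing nuclei that met the rule in each of the 6 libraries (y axis), with 95% exact binomial intervals, for the rule as given, without Cenpf, and with 2 or more rule UMIs left after thinning each nucleus to 500 UMIs. The P301S/E4/TREM2- library is highest under each, at 3.70%, 3.26% and 2.38%.

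The TREM2- to TREM2+ ratio of shares did not have 1 direction. On the log2 scale it was 2.08 (95% interval 1.66 to 2.5) in P301S/E4, -1.03 (-1.69 to -0.38) in P301S/EKO and 1.72 (0.89 to 2.56) in E4. The mean difference of the log2 shares over the 3 pairs was 0.92, with a two-sided exact permutation p of 0.5 where 3 against 3 libraries cannot go below 0.1. With the pairs kept, the exact sign-flip p was 0.5, where 3 pairs cannot go below 0.25. The mean was 0.17 without the P301S/E4/TREM2- library and 0.31 without E4/TREM2+. P301S/E4 was above E4 by 1.93 (1.48 to 2.37) in TREM2- and by 1.57 (0.74 to 2.39) in TREM2+ libraries. P301S/E4 stood above P301S/EKO by 2.59 (2.06 to 3.13) in TREM2- libraries, and the log2 ratio was -0.53 (-1.09 to 0.04) in TREM2+ libraries.

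Depth moved with some of these ratios. The P301S/EKO/TREM2- library had the lowest median depth, and 1827 of its passing nuclei held fewer than 500 UMIs, against 0 in P301S/EKO/TREM2+. When each nucleus was thinned to 500 UMIs and shallower nuclei were left out, 75 of 7004, 16 of 6186, 14 of 3223, 12 of 3582, 24 of 4411 and 8 of 3600 nuclei still held 3 rule UMIs. The thinned shares were 1.07%, 0.259%, 0.434%, 0.335%, 0.544% and 0.222%. In P301S/E4 the TREM2- to TREM2+ ratio of these shares was 2.05 (1.27 to 2.83), against 2.08 before thinning. The TREM2- share was then the higher one in all 3 pairs, but the P301S/EKO ratio of 0.37 had an interval of -0.74 to 1.49, from 14 against 12 nuclei. That ratio was -0.49 (-1.31 to 0.34) among nuclei with 500 or more detected genes and -0.90 (-1.67 to -0.13) without nuclei above 2 times the median UMI count. The mean over the thinned pairs was 1.24, with an exact permutation p of 0.1 and an exact sign-flip p of 0.25, the smallest that each allows. Thinned, P301S/E4 over E4 was 0.98 (0.32 to 1.64) in TREM2- libraries and 0.22 (-1.0 to 1.44) in TREM2+ libraries, the second from 16 against 8 nuclei. None of the neuron-marker nuclei met the rule after thinning, which allows a share of up to 2%.

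Leaving Cenpf out of the rule left 333 members and shares of 3.26%, 0.420%, 0.376%, 0.670%, 0.539% and 0.197%. The P301S/E4 ratio of TREM2- to TREM2+ was 2.95 on the log2 scale without Cenpf, against 2.08 with it. The mean over the 3 pairs was 1.19 without Cenpf, with an exact permutation p of 0.5.

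Members carried more RNA of cell cycle genes that the rule did not use. A list of 83 further S-phase genes summed to 4401 CPM in members against 1301 CPM in the other nuclei, and all 83 genes had higher CPM in members. A list of 84 further mitotic genes summed to 2768 CPM against 439 CPM, and 83 of the 84 were higher in members. Over all 21029 genes with a UMI outside the rule, 41.6% had higher CPM in members. Only 15435 genes outside the rule had a UMI in members, and a gene without one counts as lower. Over the 15365 genes with UMIs in both sets the median log2 ratio was 0.07. For the S-phase and mitotic genes with UMIs in both sets it was 2.27 and 3.66. These genes were read from the same nuclei as the rule's genes and share their depth.

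The increase was present in every library. The S-phase list had 5002, 2634, 5591, 2897, 4613 and 8606 CPM in members, against 1482, 1282, 1200, 1329, 1145 and 1183 CPM in the other nuclei. The mitotic list had 3127, 1323, 3824, 1693, 3827 and 7364 CPM in members, against 513, 416, 404, 422, 396 and 411 CPM in the other nuclei. Among members, those of P301S/E4/TREM2+ and P301S/EKO/TREM2+ were the lowest on both lists. In members not led by Cenpf the S-phase list had 5461, 3775, 8836, 4207, 7648 and 10277 CPM. The mitotic list had 3462, 2150, 6580, 2626, 6699 and 9825 CPM there, and the same libraries were the lowest. Depth differed between members of the libraries, and its part in these levels was not tested. Members with 3 or more UMIs of these lists made up 93.8%, 66.7%, 54.8%, 73.3% and 57.4% in the first 5 libraries and 12 of 15 in E4/TREM2+, against 60.2%, 40.4%, 16.8%, 46.7%, 28.1% and 14.7% of depth-matched other nuclei. The members of every library stood above matched nuclei by this measure.

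For a test across genes, UMIs of members and of other nuclei were summed per library and compared with edgeR's quasi-likelihood test, with the library as a block. Genes whose p, adjusted by Benjamini-Hochberg, was at most 0.05 were called, and SE is the standard error of a log2 fold change. Of 10738 genes tested 219 were higher in members (2.04%) and 89 were lower (0.829%), with a median log2 fold change of -0.09 over all genes. Of the 83 S-phase genes 61 were tested, and 46 rose and 0 fell. Of the 84 mitotic genes 32 were tested, and 30 rose and 0 fell. Because genes high in members passed the low-count filter through them, the genes that pass in the other nuclei alone were also counted. By that count 32 of 47 S-phase and 17 of 17 mitotic genes rose, where 1.60% of all 9959 such genes did.

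Among mitotic genes Kif4, a chromosome-bound kinesin, had 51, 5, 3, 3, 10 and 2 UMIs in members by library, against 7, 1, 0, 0, 0 and 2 UMIs in the far more numerous other nuclei. Its log2 fold change was 7.13 (SE 0.41). With 10 UMIs over all other nuclei, Kif4 passed the low-count filter only through members, so its call was not read as support. Aurkb, the kinase of the chromosomal passenger complex, had 64.9, 16.7, 108, 23.8, 116 and 414 CPM in members against 3.95, 4.29, 1.27, 2.52, 0.507 and 1.97 CPM in the other nuclei. It rose by 4.22 (SE 0.33). Kif11 and Ckap2l, which act on the spindle, rose by 5.48 and 4.30. Cdca2 and Cdca3, genes of mitotic exit and entry, rose by 4.61 and 5.09. Anln and Diaph3, which shape the contractile ring of dividing cells, rose by 3.74 and 3.42. The condensin subunit gene Ncapd2 rose by 3.31. Cenph, a kinetochore gene outside the lists, rose by 4.47 (SE 0.33), and the kinetochore checkpoint gene Zwilch rose by 4.06. The limit given for Kif4 also holds for Aurkb, Kif11, Ckap2l, Cdca2, Cdca3, Anln, Diaph3, Cenph and Zwilch. These genes were too low in the other nuclei to pass the filter there.

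Among S-phase genes Uhrf1, which carries DNA methylation through replication, had 62.3, 27.8, 108, 47.7, 43.7 and 248 CPM in members against 4.61, 0.893, 0.954, 1.12, 2.28 and 0.846 CPM in the other nuclei, a log2 fold change of 4.39 (SE 0.34). Pola1, the catalytic subunit of the polymerase that primes replication, had 167, 83.4, 325, 95.4, 262 and 331 CPM in members, against 12.4 to 23.3 CPM in the other nuclei, and rose by 2.88 (SE 0.22). Both genes were higher in members of each library. Prim1, the primase, rose by 3.00, and Clspn, which relays the replication checkpoint, by 3.03. The repair partners Brca1 and Bard1 rose by 4.36 and 3.79. The histone chaperone genes Asf1b and Chaf1a, which package new DNA, rose by 3.41 and 3.36, and Tk1, which supplies nucleotides, rose by 2.95. E2f8, a repressor of the E2F family, rose by 5.54, and Tcf19, a G1/S gene outside the lists, by 4.38. Uhrf1, Prim1, Brca1, Bard1, Asf1b, Chaf1a, E2f8 and Tcf19 likewise passed the filter only with the members, so their calls were not read as support.

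**Figure D3:**
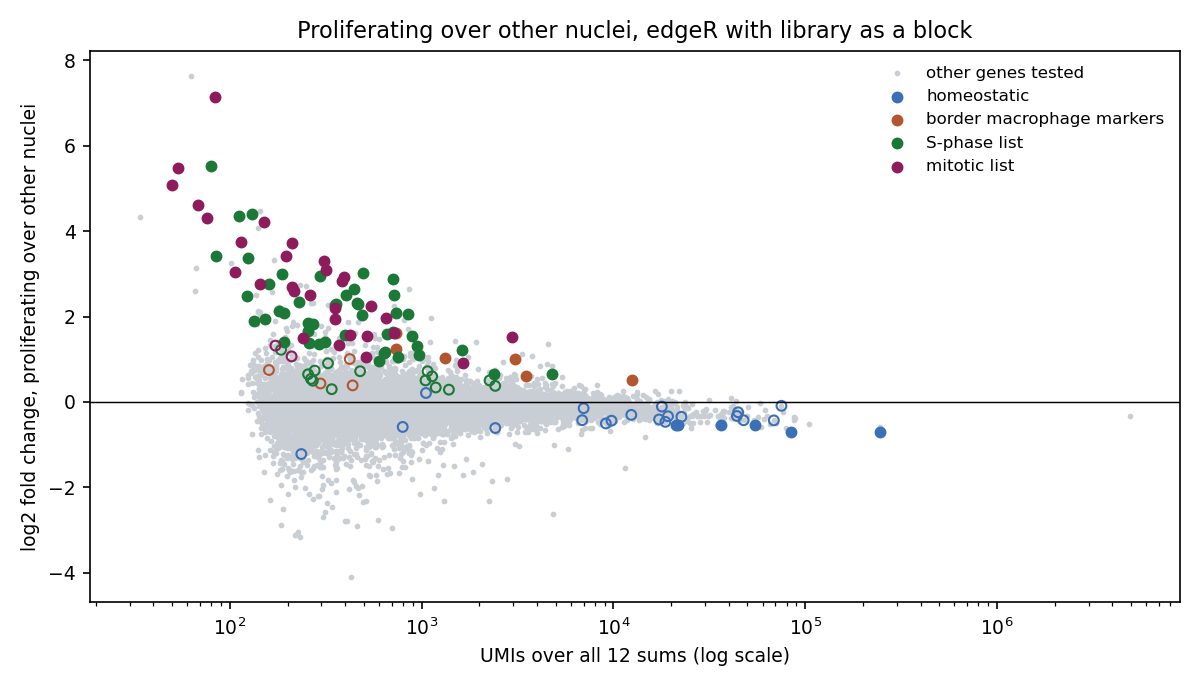
Log2 fold change of members over other nuclei from the edgeR fit (y axis) against the UMIs of each gene over the summed libraries (x axis, log scale), with 1 point per tested gene. Filled coloured points are called genes of 4 lists, open points are genes of these lists that were not called, and grey points are all other genes. The called S-phase and mitotic genes lie above 0, up to 7.13 for Kif4, and the called homeostatic genes lie between -0.71 and -0.54.

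The size of this response depended on P301S/E4/TREM2-, which held 259 of the 451 members. Without that library 100 of 10287 tested genes were higher and 38 lower, with 25 of 57 S-phase and 20 of 27 mitotic genes higher. How many of these list genes pass the filter in the other nuclei alone was not counted for this setting. Against depth-matched other nuclei, where 3433 genes could be tested, 31 genes were higher (0.903%) and 31 lower (0.903%). There 6 of 9 S-phase and 3 of 3 mitotic genes rose. With DESeq2 in place of edgeR 127 genes were higher and 25 lower.

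Of 22 listed genes of G1 and of the brakes on the cycle 20 were tested, and 4 rose and 0 fell, where 2.04% of all tested genes rose. Their median log2 fold change was 0.05. Of those that pass the filter in the other nuclei alone 3 of 18 rose, where 1.60% of all such genes did. Cdk2, the kinase that drives S phase, had 117, 77.8, 144, 65.6, 189 and 0 CPM in members against 38.9, 38.1, 31.5, 35.0, 34.0 and 31.0 CPM in the other nuclei, and rose by 1.41 (SE 0.20). It was higher in members of 5 of 6 libraries. The inhibitor gene Cdkn2c rose by 2.61 on 15 UMIs in members, the pocket protein gene Rbl1 by 1.29 and E2f3 by 0.62. Cdkn2c was too low in the other nuclei to pass the filter there, so its call was not read as support. Of 20 genes for growth signals of microglia 15 were tested, and 0 rose and 2 fell, where 0.829% of all tested genes fell. The 2 growth-signal genes were Cebpa, a myeloid transcription factor gene (-0.93), and the cytokine gene Il1b (-2.58), which had 2 UMIs in members.

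Homeostatic microglial genes were partly lower in members. Of 26 genes 25 were tested, and 6 fell and 0 rose, where 0.829% of all tested genes fell. Their median log2 fold change was -0.43 against -0.09 for all genes. Among the lower homeostatic genes were the protease inhibitor gene Cst3 (-0.71), P2ry12 (-0.55), Cx3cr1 (-0.55), Siglech (-0.54) and the matrix gene Sparc (-0.54). Cx3cr1 had 1149, 1300.4, 1190.4, 1520, 2183 and 2151 CPM in members, against 1342, 1441, 1665, 1879, 3141 and 2965 CPM in the other nuclei, and was lower in members of 6 of 6 libraries. Depth moved with this result. Against depth-matched other nuclei 0 of 21 homeostatic genes were called, and Cx3cr1 differed from matched nuclei by -0.07, 0.10, -0.22, 0.05, -0.35 and -0.44 on the log2 scale by library. It was lower in members of both E4 libraries there too, at 2183 and 2151 CPM against 2786 and 2914 CPM in matched nuclei. The calls also fell to 0 without the library block and without either P301S/EKO/TREM2- or E4/TREM2-.

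Of 33 tested genes of the disease-associated list 2 fell, the ferritin gene Fth1 (-0.82) and the protease gene Ctsd (-0.62), where 0.829% of all tested genes fell. Of 41 tested interferon genes 1 rose, Slfn9 (0.78), and 1 fell, Slfn5 (-0.72), where 2.04% of all genes rose. None of 7 MHC class II genes and none of 12 genes of lipid storage and export were called.

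Genes of other cell types were also compared. Markers of these classes reached 3 UMIs in 24.8% of members for border macrophages, 13.5% for neutrophils, 11.1% for B cells, 11.1% for astrocytes and 3.77% for neurons, and in 20.8%, 11.6%, 10.2%, 11.2% and 5.37% of depth-matched other nuclei. By library the border macrophage share was 23.6%, 18.5%, 19.4%, 31.1%, 36.2% and 26.7% of members, against 28.5%, 17.8%, 2.58%, 12.4%, 7.66% and 4% of matched nuclei, so it was lower in members of P301S/E4/TREM2-. T and NK cell markers did not reach 3 UMIs in any member. Border macrophage genes had 6 of 10 tested genes higher in members and 0 lower, where 2.04% of all tested genes were higher. Mrc1, the mannose receptor gene, had 92.9, 122, 505, 161, 757 and 1158 CPM in members against 124, 77.5, 67.7, 44.8, 170 and 131 CPM in the other nuclei, a log2 fold change of 1.01. Clec10a (1.61), Cd163 (1.25), F13a1 (1.02), Ms4a7 (0.60) and Stab1 (0.52) were the others. Without Cenpf in the rule 0 of 9 were called and 230 genes were higher (2.19%) and 58 lower (0.552%), with 48 S-phase and 30 mitotic genes among the higher ones. Without nuclei that held 3 or more border macrophage UMIs, Mrc1 had a log2 fold change of -0.56. Mrc1 is itself among the markers that chose the nuclei left out, so this value is no separate check on it. Neuron genes had 3 of 13 and astrocyte genes 5 of 7 tested genes lower in members, where 0.829% of all tested genes were lower. The glutamate transporter gene Slc1a2 of astrocytes fell by 2.63 on the log2 scale and had 25.4, 11.1, 36.1, 23.8, 58.2 and 0 CPM in members against 90.1, 220, 283, 292, 139 and 122 CPM in the other nuclei. The astrocyte markers summed to 375, 467, 613, 376, 189 and 82.7 CPM in members, against 496, 785, 811, 779, 415 and 392 CPM in the other nuclei. The neuron markers summed to 111, 111, 325, 185, 4249 and 82.7 CPM in members, against 416, 255, 684, 496, 2312 and 969 CPM in the other nuclei. They were lower in members of 5 of 6 libraries and higher in E4/TREM2-, where 225 of 226 Meg3 UMIs in members came from 1 nucleus. The lowest called genes over all lists were Tmem47 (-4.11), Ppdpf (-3.16), the matrix gene Bcan (-3.12), Dclk1 (-2.94), the neuropeptide gene Sst (-2.90), Camkv (-2.80) and the receptor gene Gabrb1 (-2.79). The part of other cell types in the other results was not tested.

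Levels of microglial programmes in members were set beside those of their own library. Gpnmb, a lysosomal glycoprotein gene of plaque- and lipid-associated microglia, had 267 and 267 CPM in members of P301S/E4/TREM2- and P301S/E4/TREM2+, against 306 and 224 CPM in their other nuclei, and 0 UMIs in members of the other 4 libraries. Spp1, osteopontin, had 67.4 CPM in members of P301S/E4/TREM2- and 489 CPM in members of P301S/E4/TREM2+, against 93.4 and 433 CPM in their other nuclei. Relative to depth-matched other nuclei of the same library, the summed homeostatic list differed by -0.04, -0.01, -0.16, 0.18, -0.40 and -0.60 on the log2 scale. The summed disease-associated list differed by -0.01, -0.08, 0.04, -0.12, -0.10 and 0.31. By the same measure the S-phase list was higher by 1.77, 1.10, 2.32, 1.24, 1.95 and 2.87 and the mitotic list by 2.59, 1.41, 3.07, 2.07, 3.23 and 4.34. The interferon list differed by -0.11, 0.17, 0.15, 0.50, 0.69 and 0.10. The MHC class II list differed by 0.26, -0.14, 0.78, 1.24, -1.07 and 3.62, the last from 81 UMIs, of which 45 were Cd74 UMIs of 1 nucleus. In all 6 libraries both cell cycle lists moved further from matched nuclei than the homeostatic and disease-associated lists did.

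**Figure D4:**
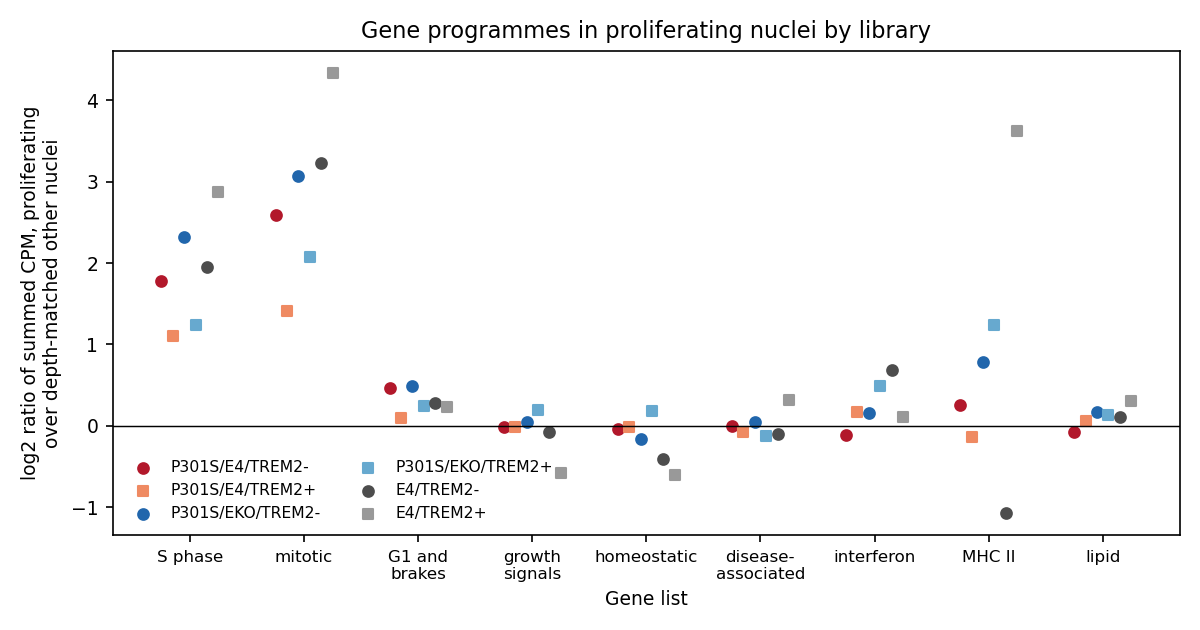
Log2 ratio of summed CPM, members over depth-matched other nuclei of the same library (y axis), for each gene list (x axis), with 1 point per library. The S-phase points lie between 1.10 and 2.87 and the mitotic points between 1.41 and 4.34, while the homeostatic points lie between -0.60 and 0.18.

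Members were split by whether the 5 S-phase or the 6 mitotic genes of the rule had more UMIs. There were 186 S-leaning, 234 mitotic-leaning and 31 tied members, and 294 members held UMIs of both kinds. The S-leaning share was 44.8%, 31.5%, 38.7%, 42.2%, 31.9% and 46.7% by library. The 95% intervals of all libraries overlapped, with 38.6 to 51.1 in P301S/E4/TREM2-, the narrowest, and 21.3 to 73.4 in E4/TREM2+, the widest. Cenpf set much of this split, since without it the S-leaning share was 52.6%, 73.1%, 63.2%, 75.0%, 53.8% and 60.0% of 333 members.

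Genes outside the rule followed the split in direction. Of the UMIs on the further S-phase and mitotic lists, 66.98% came from S-phase genes in S-leaning members and 56.7% in mitotic-leaning members, with 74.8% in the other nuclei. By library the share in S-leaning members was 67.9%, 68.3%, 65.6%, 64.6%, 64.4% and 56.0%, against 56.6%, 64.1%, 54.5%, 59.7%, 48.7% and 52.0% in mitotic-leaning members. It was higher in S-leaning members of 6 of 6 libraries, and also of 6 of 6 without Cenpf. With Cenpf the 95% intervals of the leanings were apart only in P301S/E4/TREM2- (66.0 to 69.6 against 54.9 to 58.4) and E4/TREM2- (57.7 to 70.7 against 43.3 to 54.1). Without Cenpf they were also apart in P301S/E4/TREM2+ and P301S/EKO/TREM2+. These intervals count pooled UMIs and not nuclei, so they do not cover the spread between nuclei. Both kinds of member lay below the other nuclei, whose S-phase share was between 74.2% and 75.9%. In a gene-by-gene edgeR test of S-leaning over mitotic-leaning members 0 of 778 genes were called in either direction (0% and 0%), with 24 genes at an unadjusted p under 0.05 and 0 calls by DESeq2. Just 2 S-phase and 1 mitotic gene of the lists had enough counts to enter that test, so most cell cycle genes were not detectable one by one at this depth.

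**Figure D5:**
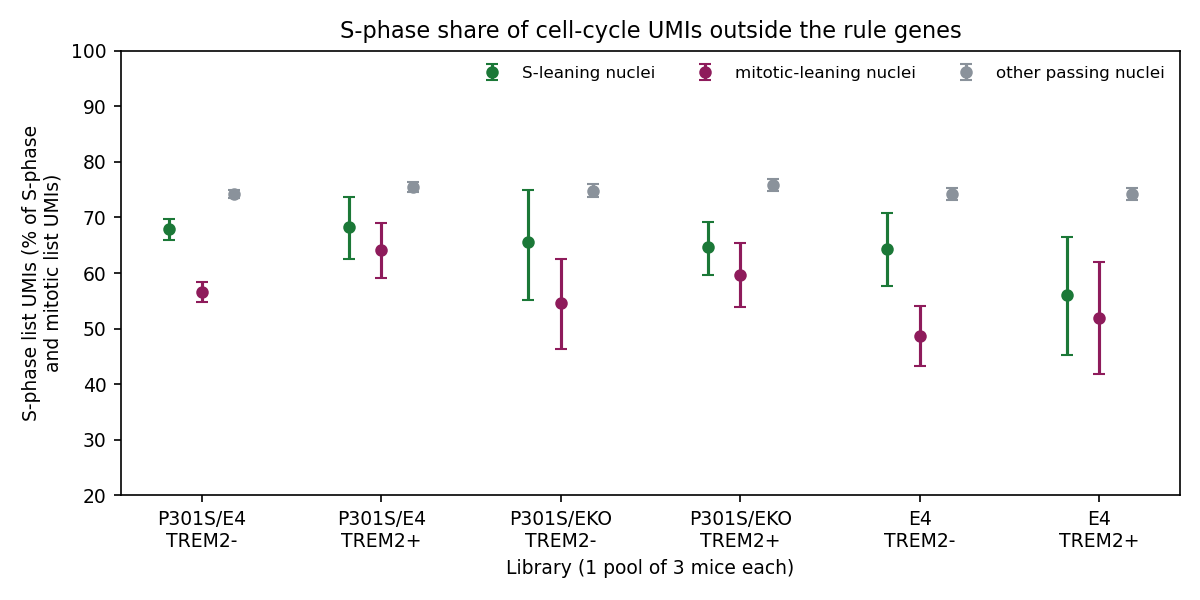
Percent of UMIs of cell cycle genes outside the rule that came from S-phase genes (y axis), in S-leaning members, mitotic-leaning members and other nuclei of each library, with 95% exact binomial intervals. S-leaning members lie above mitotic-leaning members in all 6 libraries, with intervals apart only in P301S/E4/TREM2- and E4/TREM2-, and the other nuclei lie at 74.2% to 75.9%.

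Within members, TREM2- was set against TREM2+ over the 3 genotype pairs. Of 2406 genes tested by edgeR 0 were higher (0%) and 2 were lower (0.0831%) in TREM2- members. At an unadjusted p under 0.05 there were 86 genes, and DESeq2 called 0. Of the cell cycle lists 15 S-phase and 13 mitotic genes were tested and 0 were called, with a median log2 fold change of 0.70 and 0.73 against 0.03 for all genes. The 2 lower genes each rested on few libraries. Lpl, lipoprotein lipase, had 77, 3 and 0 UMIs in members of P301S/E4/TREM2-, P301S/EKO/TREM2- and E4/TREM2-, against 88, 16 and 0 UMIs in members of the matching TREM2+ libraries, with CPM of 98.0, 108 and 0 against 489, 95.4 and 0. It was lower in 1 of 3 pairs, and its log2 fold change was -2.20 (SE 0.38, edgeR adjusted p 2.5e-05). In the other nuclei Lpl had 101, 33.1 and 5.07 CPM in these TREM2- libraries against 364, 113 and 11.6 CPM in the TREM2+ libraries. Its lower level in TREM2- is thus not particular to members. Cd74, the invariant chain of MHC class II, had 159, 4 and 4 UMIs against 48, 22 and 45 UMIs, with a log2 fold change of -1.86 (SE 0.34, edgeR adjusted p 4.7e-05). All 45 Cd74 UMIs in E4/TREM2+ came from 1 of the 15 members there, and without that library its log2 fold change was -0.43 and it was not called. Without it Lpl was at -2.22 with an edgeR adjusted p of 0.0899, although neither E4 library held an Lpl UMI in members. Cd74 was also not called without E4/TREM2-, at -0.48, while it was at -4.24 without P301S/E4/TREM2- and -4.17 without P301S/E4/TREM2+.

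The difference between members and other nuclei was also compared between TREM2- and TREM2+. Of 11881 genes 0 had a higher log2 ratio of members to other nuclei in TREM2- (0%) and 1 a lower one (0.00842%). The lower one was that of Rsad2, an interferon-induced antiviral gene. Its interaction was -3.46 (SE 0.68, edgeR adjusted p 0.0048). Rsad2 had 7, 0 and 0 UMIs in members of P301S/E4/TREM2-, P301S/EKO/TREM2- and E4/TREM2-, against 24, 4 and 0 UMIs in members of the matching TREM2+ libraries. In the other nuclei it had 268, 74 and 15 UMIs in these TREM2- libraries against 126, 142 and 11 UMIs in the TREM2+ libraries. By CPM, Rsad2 was higher in members only in P301S/E4/TREM2+, at 133 against 22.5 CPM in the other nuclei. It was lower in members of P301S/E4/TREM2- (8.91 against 35.3 CPM) and of P301S/EKO/TREM2+ (23.8 against 39.8 CPM). Of the 24 UMIs in P301S/E4/TREM2+ members 21 came from 1 nucleus, and without that library the interaction was -1.30 and not called. It was also not called without Cenpf in the rule (-1.21), without P301S/E4/TREM2- (-8.79) and with DESeq2 (-2.96), which called 0 genes. At an unadjusted p under 0.05 there were 391 genes. Of 80 S-phase and 66 mitotic genes 0 were called, with a median of 0.37 and 0.45 against 0.06 for all genes.

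The authors' deposited table of group markers was set beside the members. Its group named Prol lists 50 genes, of which 8 are in the rule and 16 on the further S-phase and mitotic lists. All 50 had higher CPM in members than in the other nuclei. That group was chosen by the authors on these same libraries and is not independent evidence.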

How the data were processed

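RNA of single PU.1-sorted nuclei was sequenced in 6 libraries (10x Genomics chemistry). The authors deposited raw UMI counts of 31053 features per nucleus, made with Cell Ranger 3.0.1 per the file headers and mapped to mm10 per the labels. The authors' deposited marker table holds a score and a log fold change per gene, whose tool and log base are not given in the sources used here. Counting UMIs limits the effect of amplification, and RNA from nuclei holds much unspliced RNA.

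Nuclei were filtered and counted with Python 3.11.15, numpy 2.4.6 and scipy 1.17.1. Summed counts were tested with edgeR 4.0.16 and limma 3.58.1 in R 4.3.3, with TMM factors, filterByExpr (minimum count 10), a library block in tests within libraries and the quasi-likelihood F test. DESeq2 1.42.0 was an alternative, beside other thresholds, depths, filters, scalings, no block and each library left out. The 11 rule genes stayed out of all tests. The block pairs sums of the same library and so of the same 3 mice. The fits estimated infinite prior degrees of freedom, so the spread was shared by all genes, and p-values measure the spread between libraries of 1 pool each. The comparison of TREM2- with TREM2+ took the genotype background as a term and left 2 residual degrees of freedom. The code was tested on simulated data with known fold changes.

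Named genes were the 10 called genes with the largest fold change in each direction among those with 100 or more UMIs (50 in tests among members), plus up to 10 called genes of each list, and a few genes that this rule names are not reported here. The members and lists were chosen with earlier results of these data known. Depth-matched nuclei were the 5 other nuclei of the same library nearest in UMI count to each member. Thinning drew 500 UMIs per nucleus with a fixed seed and left out shallower nuclei. A zero-count limit is 3 counts over the nuclei examined. Gene locations are from the GRCm38 annotation, and promoter sequences from RefSeq.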

Additional observations from a re-analysis of the deposited data

Results flagged for a closer look

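Log2 ratios of the proliferating share had opposite directions between genotypes, and the difference between them was not tested, since each rests on 1 library a genotype. The TREM2- over TREM2+ ratio was 2.08 in P301S/E4 and 1.72 in E4, but -1.03 in P301S/EKO. The P301S/E4 over P301S/EKO ratio was 2.59 in TREM2- libraries and -0.53 in TREM2+ libraries. The P301S/EKO ratio of TREM2- to TREM2+ was 0.37 after thinning, with an interval of -0.74 to 1.49, and -0.49 among nuclei with 500 or more detected genes, while P301S/EKO/TREM2- was the shallowest library.

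For Rsad2 the log2 ratio of members to other nuclei was lower in TREM2- than in TREM2+ libraries. The interaction term of the edgeR fit was -3.46 on the log2 scale. Rsad2 was higher in members than in other nuclei only in P301S/E4/TREM2+ (133 against 22.5 CPM). Of 24 Rsad2 UMIs in P301S/E4/TREM2+ members 21 lay in 1 nucleus.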

How the results depend on the processing

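Shares depended most on the threshold and on depth. In the library order of the text they were 6.28%, 2.38%, 1.86%, 2.71%, 1.88% and 1.02% with 2 or more rule UMIs, and 2.00%, 0.242%, 0.139%, 0.447%, 0.373% and 0.118% with 5 or more. Thinned to 500 UMIs they were 1.07%, 0.259%, 0.434%, 0.335%, 0.544% and 0.222% with 3 or more left, and 2.38%, 0.873%, 1.46%, 0.949%, 1.07% and 0.750% with 2 or more left. Among nuclei with 500 or more detected genes they were 4.75%, 1.28%, 1.29%, 1.80%, 1.74% and 0.600%. In P301S/E4/TREM2- the share was 2.55% without nuclei above 2 times the median UMI, 2.98% without nuclei with markers of other classes and 3.19% without those with border macrophage markers. In E4/TREM2- it was 0.635% without other classes and 0.666% without border macrophage markers, and in P301S/EKO/TREM2+ 0.889% without those markers. Without Cenpf the shares were 3.26%, 0.420%, 0.376%, 0.670% and 0.539% in the first 5 libraries. With rule UMIs from 2 or more genes they were 0.533% in P301S/E4/TREM2+, 0.376% in P301S/EKO/TREM2- and 0.559% in E4/TREM2-.

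The log2 share ratio of TREM2- to TREM2+ in P301S/E4 was 1.40 with 2 or more UMIs, 3.04 with 5 or more, 1.45 thinned with 2 or more left, 2.95 without Cenpf and 2.65 with 2 or more genes. In P301S/EKO it reversed to 0.37 and 0.62 when thinned with 3 or 2 or more left. In E4 it was 0.88 with 2 or more UMIs and 0.51 thinned with 2 or more left. P301S/E4 over E4 was, in TREM2- libraries, 2.42 with 5 or more UMIs, 0.98 and 1.16 thinned, 1.45 with 500 or more genes, 2.60 without Cenpf and 2.58 with 2 or more genes, and in TREM2+ libraries 0.22 under both thinnings. P301S/E4 over P301S/EKO in TREM2- libraries was 1.75 with 2 or more UMIs, 3.85 with 5 or more, 1.30 and 0.71 thinned, 1.88 with 500 or more genes and 3.15 with 2 or more genes. The mean log2 difference of TREM2- and TREM2+ shares lay between 0.17 and 1.47 when each library was left out.

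Among genes higher in members than in other nuclei, counts were 31 against depth-matched nuclei, 127 with DESeq2, 90 thinned, and 100 to 235 with each library left out. Genes lower were 52 with 2 or more rule genes, 31 against depth-matched nuclei, 41 with 5 or more UMIs, 25 with DESeq2, 259 with no filter, 58 without Cenpf, 162 without high-UMI nuclei, 208 without border macrophage markers, and 38 to 91 with each library left out. With no replicate block the counts were 158 higher and 33 lower, and for S-leaning over mitotic-leaning members 0 and 0. That test gave 3 higher and 2 lower genes with no filter and 2 lower without Cenpf. For TREM2- over TREM2+ members 1 gene was higher with no filter and 0 to 1 with each library left out. Lower were 1 with 2 or more rule genes, 1 with no filter, 1 without Cenpf, 0 with DESeq2, 0 without high-UMI nuclei, 0 without border macrophage markers, 0 without other classes, and 1 to 3 with each library left out. For the interaction 1 gene was higher with 500 or more detected genes, 1 with DESeq2 size factors and 0 to 1 with each library left out. Lower were 2 with DESeq2 size factors, 0 with the DESeq2 test, 0 without Cenpf, 0 without high-UMI nuclei, 2 without border macrophage markers, 0 without other classes, and 0 to 4 with each library left out.

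Single genes that reversed in log2 fold change were Gfap (0.23 without high-UMI nuclei, 0.059 without other classes), Cd163 (-0.44 without Cenpf, -0.42 with 2 or more genes), Clec10a (-0.10 without Cenpf) and F13a1 (-0.052 without Cenpf). Mrc1 was -0.33 without other classes, -0.10 without Cenpf and -0.56 without border macrophage markers. Ms4a7 was -0.15 with 5 or more UMIs, -0.42 without other classes, -0.28 without Cenpf, -0.013 with 2 or more genes and -0.51 without border macrophage markers. Stab1 was -0.00017 with 5 or more UMIs, -0.68 without other classes, -0.39 without Cenpf, -0.079 with 2 or more genes and -0.76 without border macrophage markers. Gfap, Mrc1, Ms4a7 and Stab1 are themselves among the markers that chose the nuclei left out by class. Their values in those settings are therefore no separate check on them. The rules without Cenpf, with 2 or more genes and without border macrophage nuclei were chosen after seeing the data. TREM2- over TREM2+ members could not be fitted with 5 or more UMIs, as too few libraries held 10 members. Depth limits single genes, and the cause of the changes above was not tested. Settings that leave out nuclei or genes also change the number of members, so they do not test a cause either.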
